A study of Micropterus salmoides with 68 samples.

Results

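The 7 genes described here are *fdps*, *fdft1*, *lss*, *tm7sf2*, *nsdhl* and *dhcr7*, which encode enzymes of cholesterol synthesis, and *insig1*, which encodes a protein of the endoplasmic reticulum that holds the pathway back. They are 7 of the 18666 genes in the expression table and were chosen by name, with their levels in these libraries already known. The liver at the end of transport (*tm7sf2*, *insig1*) and the liver after 1 day of recovery (*fdps*, *tm7sf2*, *nsdhl*), each against the liver before transport, had singled out 4 of them. For those 2 comparisons the members are described and not tested. Which comparison brought in *lss*, *dhcr7* and *fdft1* is not recorded, so no test of these 3 can be called independent of the choice.

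RNA was sequenced from the liver and the spleen of largemouth bass (*Micropterus salmoides*) fingerlings of 11.99 ± 4.34 g (body weight, mean ± spread as the labels give it), a farmed freshwater fish. Fish were sampled straight from the pond before transport (4 livers and 4 spleens), at the end of 4 h of transport by car in aerated boxes of 125 fish in 30 L (4 and 4), and after 1 day in indoor tanks of 600 L in a room at 28 °C (4 and 4). After 3, 4 and 5 days, fish recorded as normal and fish recorded as abnormal were sampled side by side, 3, 4 and 4 of each label in each tissue. Each library came from 1 fish, the labels give no criterion for abnormal and do not say which box or tank a fish came from, and no strain, genotype or sex is given.

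Fish were killed in MS-222, an anaesthetic, at 250 mg/L in all groups. Fish at the end of transport had been moved and left unfed, and those of the later days had in addition been kept indoors, so transport, fasting, time and, from day 1, tank cannot be told apart in the comparisons with the fish sampled before transport. Normal and abnormal fish were compared on the same day, but whether they shared tanks is not given. P-values set a difference between groups against the spread between these fish within groups. That spread was estimated over all groups of a fit and partly shared across genes. In pieces of whole tissue, fewer cells of a type and less RNA per cell cannot be told apart.

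Cholesterol is made from acetyl-CoA through mevalonate and isoprenoid intermediates, and the liver is a main site of its synthesis in vertebrates. Farnesyl diphosphate synthase (*fdps*) makes the last intermediate shared with the isoprenoid branch, which supplies ubiquinone, dolichol and the lipid anchors of proteins. Squalene synthase (*fdft1*) commits the carbon to sterols, lanosterol synthase (*lss*) closes the rings, and *tm7sf2*, *nsdhl* and *dhcr7* encode later enzymes that trim and reduce the ring system. When sterols are low, the transcription factor encoded by *srebf2* leaves the endoplasmic reticulum and raises transcription of the genes for these enzymes. The protein encoded by *insig1* retains that factor when sterols are high, and in mammals *insig1* is itself one of its targets. These roles are known mainly from mammals.

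Levels are in TPM, a gene's share of the transcripts of a library, corrected for transcript length and scaled to the same total in every library. The 68 libraries held between 10814 and 14472 genes at 1 TPM or more in the liver and between 13320 and 16846 in the spleen, and the read depth behind them is unknown because TPM values carry no count. The summed TPM of 11 hepatocyte markers was 69548 to 136195 in the livers and 50.11 to 2849 in the spleens, so the tissue labels fit these markers. Single markers departed from the sum. *fabp10a*, the liver fatty acid carrier, was listed at 0 in all livers of normal fish on days 3 and 4. It had a median of 0 on day 5, against 121 to 481 TPM before transport. In normal fish of days 3 to 5, 8 of the 11 markers were lower than before transport and 2 higher. Their median difference was -2.035 in log2(TPM + 1), where 51.6% of all genes were called (limma, adjusted p under 0.05).

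Before transport, *insig1* was the most abundant of the 7 in the liver. Its level was 22.7, 17.2, 63.6 and 142 TPM in the 4 livers, and that of *dhcr7*, which makes cholesterol from its direct precursor, was 36.3, 14.7, 41.5 and 106 TPM. The low end was held by *fdps* at 2.24, 1.14, 4.39 and 5.16 TPM and *tm7sf2* at 2.25, 1.33, 3.26 and 6.77 TPM. In all 7 genes the same fish (fish 4) gave the highest and the same fish (fish 2) the lowest of these 4 livers. The liver of fish 4 differed from the others over all genes too. Its median gene level was 5.36 TPM, against 1.91, 1.97 and 3.13 TPM in fish 1, 2 and 3. It held 14472 genes at 1 TPM or more, the most of any liver. The spleen held less of 5 of the enzymes with no overlap between the tissues' libraries: the ratio of liver to spleen means was 40.4 for *lss*, 10.85 for *nsdhl*, 6.65 for *dhcr7*, 5.36 for *tm7sf2* and 3.59 for *fdft1*. *fdps* went the other way, at 3.23 ± 1.86 TPM in the liver and 8.22 TPM in the spleen (means, n = 4 each), and *insig1* overlapped between the tissues. Overlap between the tissues was not counted over all genes, so these values describe the 7 genes only.

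At the end of transport the liver held far more *tm7sf2* and *insig1* than before. The level of *tm7sf2*, which encodes a sterol reductase, was 50.0, 118, 18.9 and 59.8 TPM, and each of these exceeded every liver before transport. The level of *insig1* was 339, 277, 121 and 428 TPM, which overlapped the earlier range only through the pond fish at 142 TPM. On the log2(TPM + 1) scale, which understates changes of low genes, the difference was 3.71 (SE 0.61) for *tm7sf2* and 2.57 (SE 0.55) for *insig1*. It was 2.18 for *fdps*, 1.60 for *nsdhl*, 1.17 for *fdft1*, 0.98 for *dhcr7* and 0.44 for *lss*. One liver, fish 3 at the end of transport, was the lowest of its group for all 7 genes. These 2 contrasts chose members, so the values are a description, and in the first of them 12.2% of the 15430 genes tested in the liver differed in level (limma, adjusted p under 0.05). The median difference of all genes was -0.27, and that of the 7 members was 1.60.

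After 1 day of recovery the pattern across the 7 genes was different, with *fdps*, *tm7sf2* and *nsdhl* high and *insig1* within its range before transport. The level of *fdps* was 72.2, 149, 44.6 and 45.1 TPM, and all 4 livers lay above every liver of both earlier groups. The level of *nsdhl*, an enzyme that removes the methyl groups of the ring, was 41.8, 71.5, 39.0 and 21.3 TPM. The level of *insig1* was 80.8, 77.9, 41.8 and 46.6 TPM. The 4 *insig1* values were below all 4 at the end of transport and within the range before transport, while *nsdhl* exceeded every liver before transport. That *insig1* range reached 142 TPM through fish 4 alone. The other livers before transport were at 17.2 to 63.6 TPM, below fish 1 and 2 after 1 day. Leaving out 1 library moved the *insig1* difference from before transport between -0.0009 and 0.9902 (log2 scale).

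The differences from the liver before transport were 4.15 (SE 0.75) for *fdps*, 4.15 (SE 0.61) for *tm7sf2*, 3.16 (SE 0.63) for *nsdhl*, 2.13 (SE 0.72) for *fdft1*, 1.79 (SE 0.58) for *dhcr7*, 1.43 (SE 0.85) for *lss* and 0.43 (SE 0.55) for *insig1* (log2 scale, described only). In that comparison 27.3% of all genes were called, and the median of the members was 2.13 against -0.16 over all genes. The summed TPM of the 6 enzymes was 27.7 to 211.5 in the livers before transport, 85.3 to 391.8 at the end of transport and 266.5 to 812.8 after 1 day. The plot of liver levels shows each of these libraries.

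**Figure D1:**
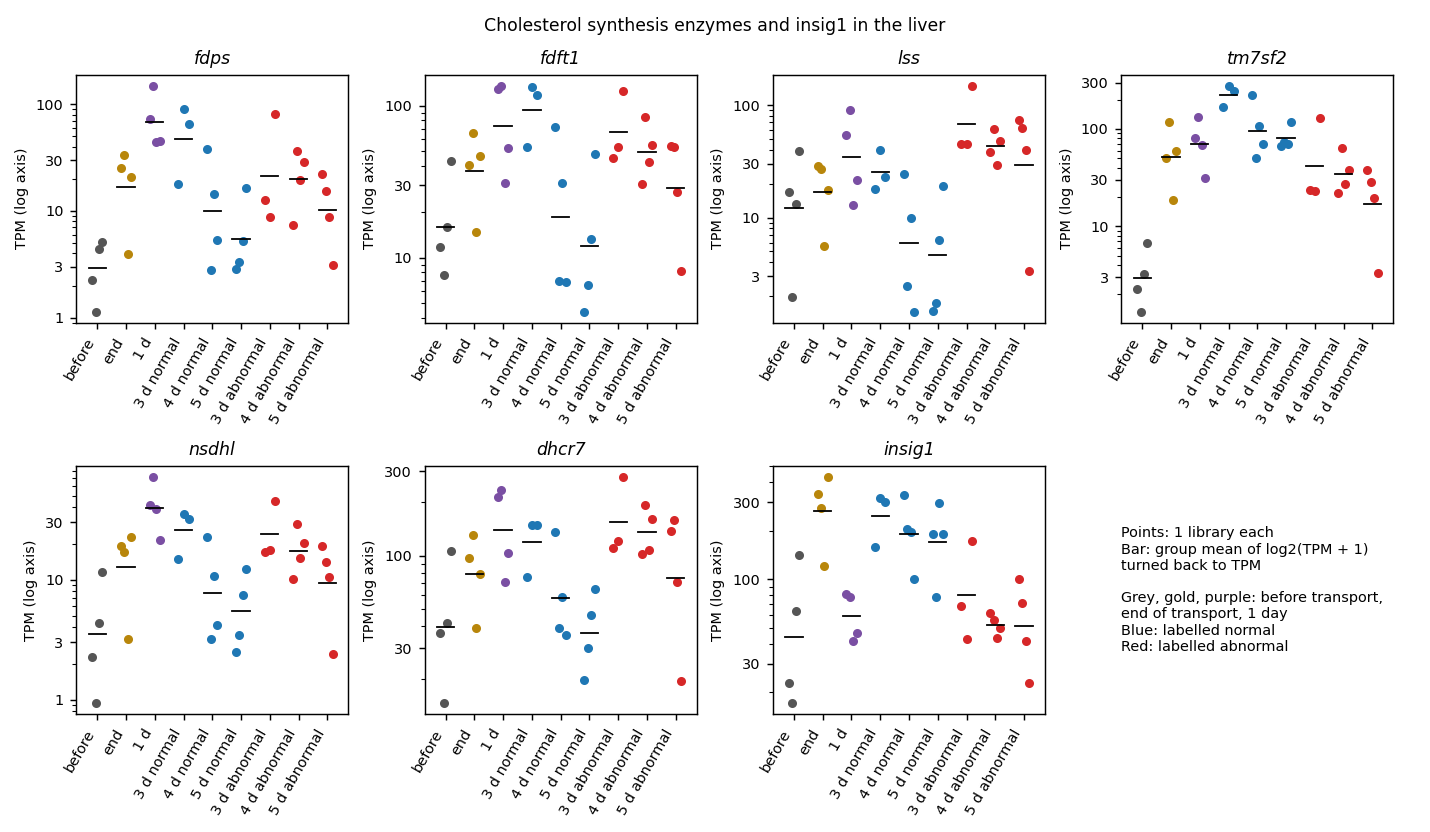
TPM (log axis) of the 7 genes in each of the 34 livers, by group, with 1 point per library and a bar at the group mean of log2(TPM + 1) turned back to TPM. *tm7sf2* and *insig1* are high in blue (normal) and lower in red (abnormal). *lss* is low in blue on days 4 and 5 and higher in red after 3 days or more. After 1 day *insig1* (41.8 to 80.8 TPM) lies within its range before transport, whose top (142 TPM) is fish 4 alone, and *fdps* lies far above its own.

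The rest of the pathway gives the setting. A list of 11 other sterol synthesis genes, made with earlier results known, had 0 genes called in the liver at the end of transport (limma, 1 with an unadjusted p under 0.05) and a median difference of 0.41. The count was 1 without fish 1 before transport, a lower gene, and 1 without fish 3 at the end of transport, a higher one. After 1 day 5 of the 11 were higher and 0 lower, with a median of 1.53, where 27.3% of all genes were called. They were *hmgcs1*, which makes the substrate of the rate-limiting reductase (3.02, limma adjusted p = 0.00226), *sqlea*, squalene epoxidase (3.34, adjusted p = 0.012), *sc5d*, a sterol desaturase (2.29, adjusted p = 0.0212), and, from the steps after mevalonate, *idi1* (1.37, adjusted p = 0.0268) and *mvda* (1.38, adjusted p = 0.039).

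The reductase gene *hmgcra* was not called after 1 day. Among 10 other regulators of the pathway, *srebf2* was higher (2.28, limma adjusted p = 0.00589), as was *ube2g2* (0.80), which takes part in the breakdown of the reductase in mammals. These were the 2 called of the 10, where 27.3% of all genes were called, and the list counts that follow stand against the same share. Of the 13 genes of the isoprenoid branch 6 were higher and 1 lower. The higher ones were led by *dhdds*, a dolichol enzyme subunit (2.94), *ggps1*, which extends farnesyl diphosphate (1.46), and *pdss1*, of ubiquinone synthesis (1.04). Of 7 tested genes of cholesterol efflux and esterification 3 were lower and 0 higher, among them the cholesterol exporters *abcg5* (-2.38) and *abcg8* (-2.12). The count of 5 synthesis genes was 2 without fish 2 and 3 without fish 3 before transport, 3 without fish 1 and 2 without fish 2 after 1 day, and 1 when only these 2 groups were fitted. Over all genes 4218 were called, 1941 to 4995 with 1 library left out and 248 with only these groups fitted. The synthesis count was 8 after rescaling (5506 over all genes). It was 7 without fish 4 before transport and fish 3 after 1 day together (2087 over all genes). That fish 4 was the highest of its group for all 7 members, and that fish 3 the lowest of its group for 5. Leaving both out tends to widen the difference for genes that vary alike, so that count is a description only.

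From day 3 the livers of normal and abnormal fish held the 7 genes in different proportions. In the livers of normal fish *tm7sf2* was 167, 278 and 244 TPM on day 3, 221, 50.1, 108 and 70.3 TPM on day 4 and 66.6, 74.3, 70.7 and 117 TPM on day 5. In those of abnormal fish it was 23.6, 22.9 and 129 TPM, then 21.8, 63.1, 26.9 and 38.1 TPM, then 37.8, 28.4, 19.5 and 3.35 TPM. The lowest normal liver (50.1 TPM) was above 9 of the 11 abnormal livers, and on days 3 and 5 the labels did not overlap. Overlap between groups was not counted over all genes, so here and below it describes the named genes only.

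*insig1* followed the same order. In the livers of normal fish it was 158, 317 and 300.2 TPM on day 3, 334, 203, 196 and 101 TPM on day 4 and 191, 77.2, 294 and 190.3 TPM on day 5. In those of abnormal fish it was 68.5, 42.75 and 173 TPM, then 62.2, 56.1, 43.1 and 50.2 TPM, then 99.95, 70.8, 41.8 and 22.8 TPM. The day 4 values did not overlap between labels, and those of days 3 and 5 did.

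*lss* stood the other way round. Its level was 17.98, 39.7 and 22.7 TPM in normal livers on day 3, 24.2, 2.46, 9.88 and 1.46 TPM on day 4 and 1.48, 1.76, 6.29 and 19.1 TPM on day 5. In abnormal livers it was 45.5, 44.7 and 148 TPM, then 38.6, 61.6, 29.35 and 48.2 TPM, then 73.1, 62.95, 39.6 and 3.37 TPM. Apart from the last of these fish, every abnormal liver on days 4 and 5 exceeded every normal liver of its day, and the 3 abnormal livers of day 3 exceeded the 3 normal ones.

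Over the 3 days together, liver *dhcr7* had a lowest, median and highest value of 19.8, 57.9 and 149 TPM in normal fish and 19.4, 122 and 278 TPM in abnormal fish, with wide overlap. The corresponding values of *fdft1* were 4.41, 30.8 and 132 TPM in normal fish and 8.16, 53.5 and 125 TPM in abnormal fish. *fdps* was 2.82, 14.5 and 90.8 TPM against 3.15, 15.4 and 81.0 TPM, and *nsdhl* was 2.52, 10.7 and 35.5 TPM against 2.39, 17 and 45.05 TPM. For these last 2 genes the ranges of the labels nearly coincided.

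The difference between labels was tested with limma on log2(TPM + 1) over all 34 livers, as abnormal minus normal averaged over days 3, 4 and 5, with p-values adjusted over all 15430 genes. The groups it compares share no library with the 2 comparisons known to have chosen members. The livers of those comparisons still enter the fit, through the shared estimate of the spread. Which comparison brought in *lss*, *dhcr7* and *fdft1* is not recorded. *tm7sf2* was lower in abnormal fish by -2.01 (SE 0.37, adjusted p = 4.94e-05) and *insig1* by -1.73 (SE 0.33, adjusted p = 7.85e-05). *lss* was higher by 2.15 (SE 0.52, adjusted p = 0.000924) and *dhcr7* by 0.87 (SE 0.35, adjusted p = 0.0394). The remaining 3 did not pass: *fdft1* 0.69 (SE 0.44, adjusted p = 0.188), *nsdhl* 0.55 (SE 0.38, adjusted p = 0.236) and *fdps* 0.19 (SE 0.45, adjusted p = 0.753).

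So 4 of the 7 were called, against 50.4% of all genes tested, a like share. The median difference of all genes was 0.09. The calls of *tm7sf2*, *insig1* and *lss* stood in each of the 22 fits that left out 1 liver of these groups. That of *dhcr7* was lost in 10 of them (adjusted p up to 0.0964), with the replicate number as a block (adjusted p = 0.0509) and after rescaling the libraries by the median of ratios (adjusted p = 0.0636).

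By day, the difference of *tm7sf2* was -2.41 on day 3 (limma adjusted p = 0.0168), -1.45 on day 4 (adjusted p = 0.082) and -2.18 on day 5 (adjusted p = 0.00783). That of *insig1* was -1.61 (adjusted p = 0.075), -1.85 (adjusted p = 0.0124) and -1.71 (adjusted p = 0.0184). That of *lss* was 1.37 (adjusted p = 0.373), 2.66 (adjusted p = 0.0202) and 2.43 (adjusted p = 0.0308). The number of members called was 1, 2 and 3 on the 3 days, where 17.7%, 26.1% and 28.8% of all genes were called.

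These daily calls rested on few fish. The call of *tm7sf2* on day 3 was lost without abnormal fish 1 or 2 or normal fish 2 or 3 (adjusted p up to 0.116), and on day 5 without abnormal fish 4 (adjusted p = 0.0615). That of *lss* was lost on day 4 without abnormal fish 2 or normal fish 2 or 4 (up to 0.0847) and on day 5 without abnormal fish 1, 2 or 3 or normal fish 1 or 2 (up to 0.108). That of *insig1* on day 5 was lost without abnormal fish 4 or normal fish 3 (up to 0.0885). On day 3 the count was 2 without abnormal fish 3, and on day 4 it was 4 without normal fish 1. Whether the difference changed from day to day was tested with limma's moderated F test: 0 of the 7 members were called (0 with an unadjusted p under 0.05, lowest unadjusted p = 0.164), and 0% of all genes were called.

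**Figure D2:**
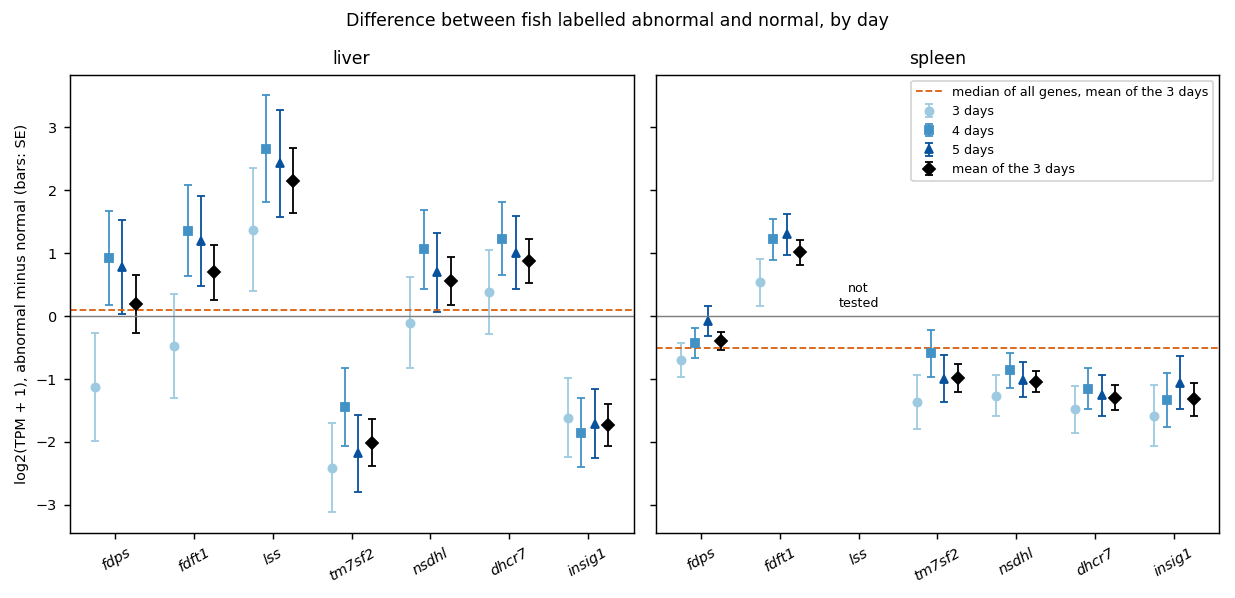
Difference in log2(TPM + 1), abnormal minus normal fish, for each gene on days 3, 4 and 5 and as the mean of the 3 days (bars: SE), in liver and spleen, with the median of all genes as a dashed line. In the liver *lss* (2.15) and *tm7sf2* (-2.01) lie on opposite sides, while in the spleen 5 genes lie below 0 and *fdft1* (1.02) above it; before rescaling, the median of all spleen genes is itself at -0.51.

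Both labels were also set against the livers before transport. These contrasts share the pond livers with the comparisons that chose members, so nothing is read from their counts. The normal fish of days 3 to 5 differed by 4.93 (SE 0.51) in *tm7sf2*, 2.17 (SE 0.45) in *insig1*, 1.96 (SE 0.62) in *fdps* and 1.34 (SE 0.52) in *nsdhl*, and by 0.77 in *fdft1*, 0.67 in *dhcr7* and -0.38 in *lss*. The abnormal fish differed by 2.91 (SE 0.51) in *tm7sf2*, 2.15 (SE 0.62) in *fdps*, 1.89 (SE 0.52) in *nsdhl* and 1.54 (SE 0.48) in *dhcr7*, and by 1.77 in *lss*, 1.47 in *fdft1* and 0.45 in *insig1*. The 4 genes listed first in each sentence were called, in both cases 4 of 7. Over all genes 51.6% were called for normal fish (median of all genes -0.24) and 9.28% for abnormal fish (median -0.15). For normal fish all 4 had been singled out with the same pond livers, and for abnormal fish all but *dhcr7*. The calls therefore repeat that choice in part, and the shares are not a measure of these genes. The count for abnormal fish was 1 without fish 2 before transport and 2 without abnormal fish 3 of day 3. It was 2 when only these groups were fitted.

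The order of the 9 liver groups by mean log2(TPM + 1) differed from gene to gene. For *tm7sf2* the 3 groups of normal fish came first, followed by 1 day, the end of transport and the 3 groups of abnormal fish, with the livers before transport last. *fdps* and *nsdhl* shared 1 order, led by 1 day and then day 3 normal and day 3 abnormal, with day 5 normal next to last. *insig1* was led by the end of transport and then the 3 normal groups in the order of days. *lss* was led by the abnormal groups of days 3 and 4 and ended with the normal groups of days 4 and 5, below the livers before transport. In every gene all 8 pairs of neighbours in the order overlapped in their libraries. Overlap of so few libraries does not show that neighbours are alike, so the order is a description.

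In several liver groups 1 fish was the highest or the lowest for all 7 genes. On day 3 normal fish 1 was the lowest for all 7 genes, and among abnormal fish of that day fish 3 was the highest for all 7. On day 4 normal fish 1 was the highest for all 7, and on day 5 abnormal fish 4 was the lowest for all 7. Other groups were split: after 1 day fish 2 was the highest for 6 genes and fish 3 the lowest for 5. Whether other genes did likewise was not tested. Over the 9 group means, the profile of *nsdhl* had a Pearson correlation of 0.947 with the mean profile of the other 6 genes, *fdps* 0.941, *fdft1* 0.914 and *dhcr7* 0.861. *tm7sf2* reached 0.554, *lss* 0.534 and *insig1* 0.061. These are descriptions over 9 points that share tissue and libraries. The pair *lss* and *dhcr7* reached 0.888 and the pair *tm7sf2* and *insig1* 0.734, while *insig1* and *lss* were at -0.456.

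Ratios within a library do not depend on how the library is scaled, and the pairs below were chosen after their values were seen. In the liver the ratio of *tm7sf2* to *lss* was 0.133 to 0.672 before transport, 1.76 to 4.41 at the end of transport and 1.44 to 5.25 after 1 day. It was 6.13 to 48.2 in the 11 normal livers (median 10.9) and 0.452 to 1.03 in the 11 abnormal livers (median 0.564). The ratio of *insig1* to *dhcr7* was 2.02 to 9.65 in the normal livers (median 2.86) and 0.289 to 1.17 in the abnormal livers (median 0.592). It had been 2.13 to 5.44 at the end of transport and 0.331 to 0.591 after 1 day. In both ratios the 2 labels did not overlap on any of the days. In the spleen both ratios overlapped between labels when the 3 days were pooled, and by day the exception was *tm7sf2* to *lss* on day 3 (3.55 to 12.87 in normal and 0.235 to 1.57 in abnormal fish), with *lss* below 1 TPM throughout.

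**Figure D3:**
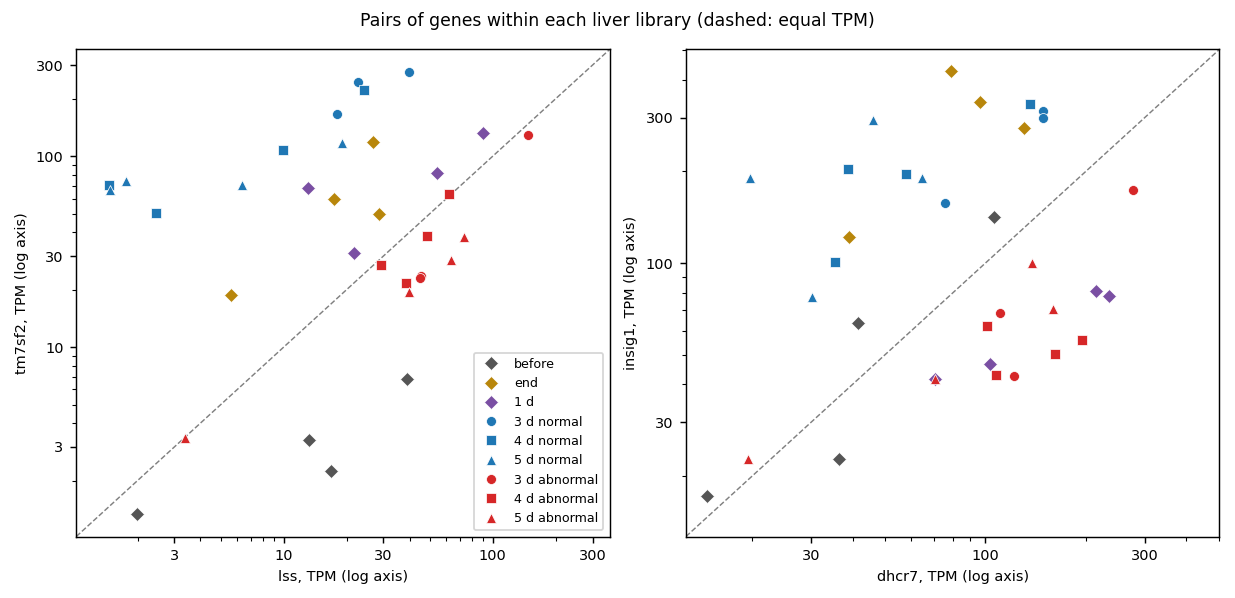
TPM of *tm7sf2* against *lss* (left) and of *insig1* against *dhcr7* (right) in each liver, both axes on a log scale, with a dashed line at equal TPM. The 11 normal livers (blue) lie above the line and apart from the 11 abnormal livers (red), with ratios of 6.13 to 48.2 against 0.452 to 1.03 in the left panel.

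Other genes of the pathway were compared between labels in the liver. Of the 11 other synthesis genes 5 were higher in abnormal fish and 0 lower, with a median difference of 0.66. Over all genes 50.4% were called in this comparison, 4485 higher and 3287 lower, so this count is near the background, and the list counts that follow stand against the same share. They were *hmgcra*, the rate-limiting reductase (2.25, limma adjusted p = 0.000563), *lbr* (0.74, adjusted p = 0.000196), *sc5d* (1.48, adjusted p = 0.00654), *msmo1*, an oxidase of the ring methyl groups (1.14, adjusted p = 0.0181), and *sqlea* (1.54, adjusted p = 0.0301). The others were *hmgcs1* 0.66, *hsd17b7* 0.42, *mvk* 0.26, *idi1* 0.10, *mvda* -0.40 and *acat2* -0.42, not called. *lbr* encodes the other protein with the same sterol reductase activity as *tm7sf2*, together with a role in the nuclear envelope, and the 2 genes differed between labels in opposite directions. The level of *lbr* was low, with group means of 3.28, 2.94 and 2.87 TPM in normal fish and 4.52, 7.40 and 5.60 TPM in abnormal fish on days 3, 4 and 5.

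**Figure D4:**
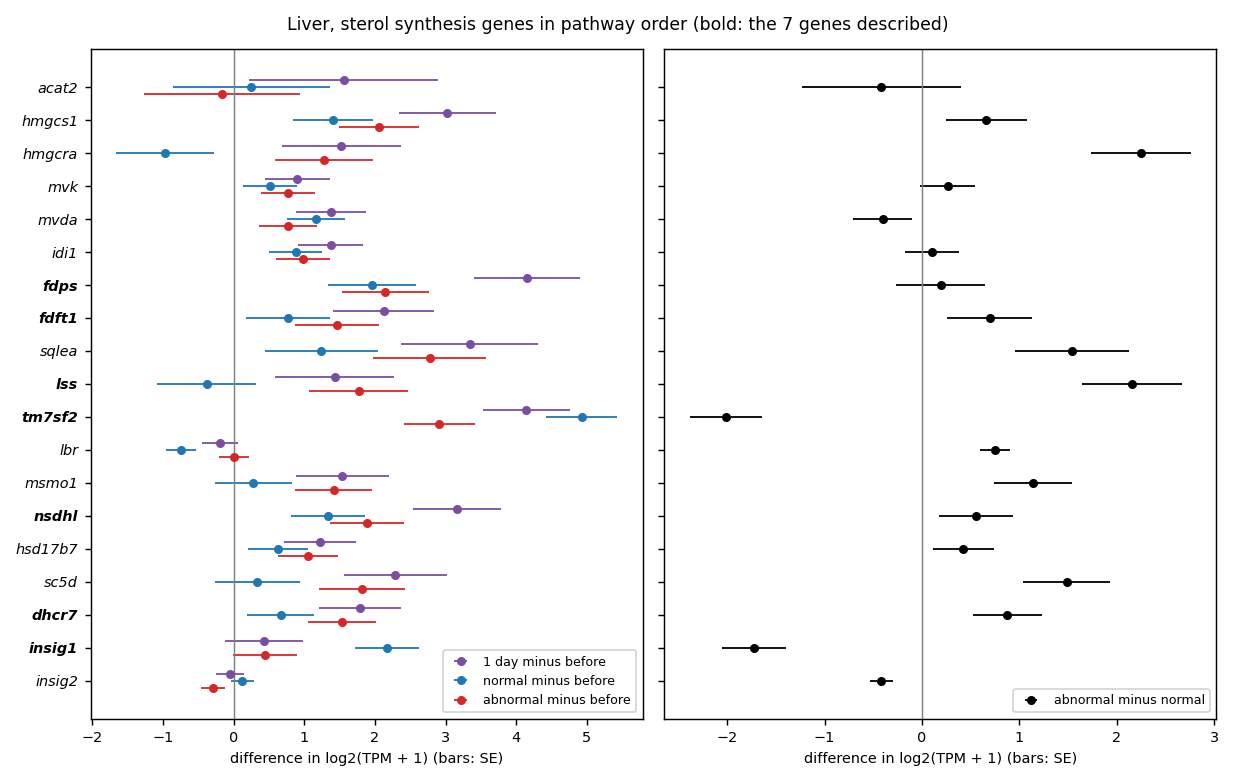
Differences in log2(TPM + 1) in the liver (bars: SE) for the sterol synthesis genes in pathway order, with *insig1* and *insig2* below them; left, 1 day, normal and abnormal fish against the liver before transport; right, abnormal minus normal. Bold names are the 7 genes described, and on the right *tm7sf2* (-2.01) lies far below *lss* (2.15), *hmgcra* (2.25) and the other enzymes.

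Of 10 other regulators 2 were higher and 4 lower in abnormal livers. *insig2*, the relative of *insig1*, was lower by -0.42 (limma adjusted p = 0.00492), and *mbtps2*, a protease that releases the transcription factor, by -0.91. Its partner protease *mbtps1* was higher by 0.65, and *rnf139* by 0.94. The transcription factor gene *srebf2* itself did not pass (0.14, adjusted p = 0.775). Of the calls in these 2 lists, *sqlea* was lost in 8 of 22 fits that left out 1 liver (adjusted p up to 0.0711) and *rnf139* in 3 (up to 0.0518).

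Of the 13 genes of the isoprenoid branch, which draws on the product of *fdps*, 11 were lower in abnormal livers and 1 higher, with a median of -0.67. *zmpste24*, a protease for farnesylated proteins, was lower by 1.39 and *nus1*, a subunit of the dolichol enzyme, by 1.29. *ggps1*, which makes geranylgeranyl diphosphate from farnesyl diphosphate, was lower by 0.87. Against the livers before transport, 10 of the 13 were higher and 0 lower in normal fish (median 0.767). In abnormal fish 1 was higher and 0 lower (median 0.0683). Over all genes 51.6% were called for normal and 9.28% for abnormal fish in these comparisons. Of 7 tested genes of cholesterol efflux and esterification 3 were higher and 0 lower: *abcg5* (2.94), *abcg8* (2.58) and *apoea* (2.20). Of 12 tested genes of cholesterol uptake and transport 3 were higher, among them *npc1l1* (1.47) and *scarb1* (1.32), and 3 lower, among them *stard5* (-0.96). Of the 6 bile acid and oxysterol genes 3 were higher, among them *nr0b2b* (3.80), a repressor in bile acid control, and 1 lower. Of 12 fatty acid synthesis genes 3 were higher, among them *scdb*, a desaturase (3.05), and *elovl6* (1.00), and 2 lower, among them *pnpla3* (-0.77). All values are limma log2 differences called at an adjusted p under 0.05.

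Cell type markers also differed between labels in the liver. Of 11 hepatocyte markers 8 were higher and 3 lower in abnormal fish, with a median of 1.68. Those with the smallest p were *hpxa*, the haem-binding hemopexin (7.54), *fabp10a* and *vtnb* (1.68). For *fabp10a*, listed at 0 in 10 of the 11 normal livers and at 111 to 605.9 TPM in the abnormal ones, no fold is given, and whether those zeros are a failed estimate cannot be settled from these values. Their summed TPM was 69548 to 98575 in normal and 79232 to 99840 in abnormal livers. The 4 red blood cell markers were all higher, with sums of 14.33 to 40.79 TPM against 89.26 to 304.5 TPM. Against the livers before transport, 8 hepatocyte markers were lower and 2 higher in normal fish (median -2.035). In abnormal fish 2 were lower and 0 higher (median -0.353). Of the 4 red blood cell markers 3 were lower in normal fish and 0 were called in abnormal fish. Over all genes 51.6% were called for normal and 9.28% for abnormal fish in these comparisons. Of the immune markers, *cd79a* of B cells (1.05) and *lck* of T cells (0.56) were higher and *marco* (-0.56) and *ncf1* (-0.56) of macrophages and neutrophils lower, all at low sums of 0.73 to 18.88 TPM. Their part in the differences of the 7 genes was not tested.

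In the spleen the 7 genes were low and varied over a narrower range. *insig1* was the highest at 27.3, 30.9, 23.5 and 31.04 TPM before transport, followed by *fdps* at 8.61, 8.41, 7.67 and 8.19 TPM. *lss* never passed 0.89 TPM, stayed under the filter of 1 TPM in all 34 spleens and was not tested, which leaves 6 genes. *tm7sf2* reached 1 TPM in 12 of 34 spleens and *nsdhl* in 10 of 34, all of the latter from normal fish. These 2 passed the filter mainly through the groups in which they were high, so their calls between labels are not support of their own. In the spleen, too, neighbours in the order of group means overlapped, with the exception of *fdps* before transport above day 3 abnormal.

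At the end of transport *fdft1* was higher in the spleen. Its level was 6.16, 4.97, 4.07 and 6.59 TPM before transport and 13.01, 12.6, 14.75 and 14.1 TPM at the end, without overlap. The limma difference was 1.196 (SE 0.33, adjusted p = 0.0143). It was the 1 member of 6 tested that was called, where 12.2% of the 17998 spleen genes were called, and the call was lost without fish 3 before transport (adjusted p = 0.0504). Beside it, *fdps* was 4.64, 5.09, 5.44 and 6.15 TPM at the end of transport, below all 4 earlier spleens, with a difference of -0.55 (adjusted p = 0.131). *fdps* passed when only these 2 groups were fitted (adjusted p = 0.00616) and after rescaling (adjusted p = 0.029). Hepatocyte markers were higher in these spleens, 10 of 11 called, with sums of 358.7 to 2849 TPM against 58.34 to 141.3 TPM before transport. Their part in the result was not tested.

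After 1 day *insig1* was 10.3, 10.7, 5.25 and 32.7 TPM and *dhcr7* was 3.12, 3.39, 0.94 and 6.08 TPM in the spleen. The *insig1* values of fish 1 to 3 were below all spleens before transport, and that of fish 4 was above them. Before transport *dhcr7* had been 6.91, 11.2, 4.35 and 7.46 TPM. Both were called lower, *insig1* by -1.17 (limma adjusted p = 0.0497) and *dhcr7* by -1.03 (adjusted p = 0.0236), 2 of 6 where 20.1% of all genes were called. Neither call was firm: leaving out any of 7 of the 8 spleens (all except fish 4 after 1 day) ended that of *insig1* (adjusted p up to 0.237). That of *dhcr7* was lost without fish 2 or 4 before transport or fish 3 after 1 day (up to 0.155). The red blood cell markers were 4 of 4 higher in these spleens, at 1152 to 5573 TPM against 277.9 to 518.3 TPM, and their part was not tested.

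From day 3 the spleens of abnormal fish held less of 5 of the genes and more *fdft1* than those of normal fish, and for *fdps* that direction turned after rescaling. *insig1* had a lowest, median and highest value of 22.05, 32.35 and 58.8 TPM in 11 normal spleens and 3.32, 14.5 and 28.55 TPM in 11 abnormal spleens. *dhcr7* was 9.52, 12.95 and 17.5 TPM against 2.53, 4.69 and 10.4 TPM. *nsdhl* was 0.95, 1.79 and 3.78 TPM against 0.13, 0.53 and 0.93 TPM. The labels overlapped at 1 end in *insig1* and *dhcr7* and did not overlap in *nsdhl*. As *nsdhl* reached 1 TPM in spleens of normal fish only, its separation is a description and not support of its own. *tm7sf2* was 0.69, 1.96 and 4.22 TPM against 0.02, 0.24 and 3.58 TPM, and *fdps* was 7.41, 10.3 and 13.02 TPM against 4.14, 7.64 and 9.62 TPM. *fdft1* was the exception, at 2.41, 4.83 and 8.37 TPM in normal and 6.33, 9.76 and 15.9 TPM in abnormal spleens.

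The limma difference, abnormal minus normal over the 3 days, was -1.33 for *insig1* (SE 0.26, adjusted p = 6.08e-05), -1.30 for *dhcr7* (SE 0.20, adjusted p = 1.78e-06), -1.04 for *nsdhl* (SE 0.17, adjusted p = 4.91e-06), -0.98 for *tm7sf2* (SE 0.23, adjusted p = 0.000415) and -0.40 for *fdps* (SE 0.14, adjusted p = 0.0166). For *fdft1* it was 1.02 (SE 0.20, adjusted p = 6.31e-05). The 6 genes tested were called, also in each of the 22 fits that left out 1 spleen, where 61.9% of all genes were called. Since *tm7sf2* and *nsdhl* passed the filter mainly through normal fish, this count is given as a description.

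The median of all spleen genes was itself -0.51, and 9746 of the 11140 called genes were lower. Less this median, the difference was -0.81 for *insig1*, -0.79 for *dhcr7*, -0.53 for *nsdhl*, -0.47 for *tm7sf2*, 0.11 for *fdps* and 1.53 for *fdft1*. After rescaling by the median of ratios, *fdps* turned to 0.19 and was not called (adjusted p = 0.0995). *insig1* (-0.71, adjusted p = 0.000332), *dhcr7* (-0.72, adjusted p = 6.32e-05) and *fdft1* (1.58, adjusted p = 7.82e-09) kept their direction and their calls. So did *nsdhl* (-0.73, adjusted p = 0.000308) and *tm7sf2* (-0.71, adjusted p = 0.00807). These 2 passed the filter mainly through normal spleens, so their calls are again not support of their own.

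**Figure D5:**
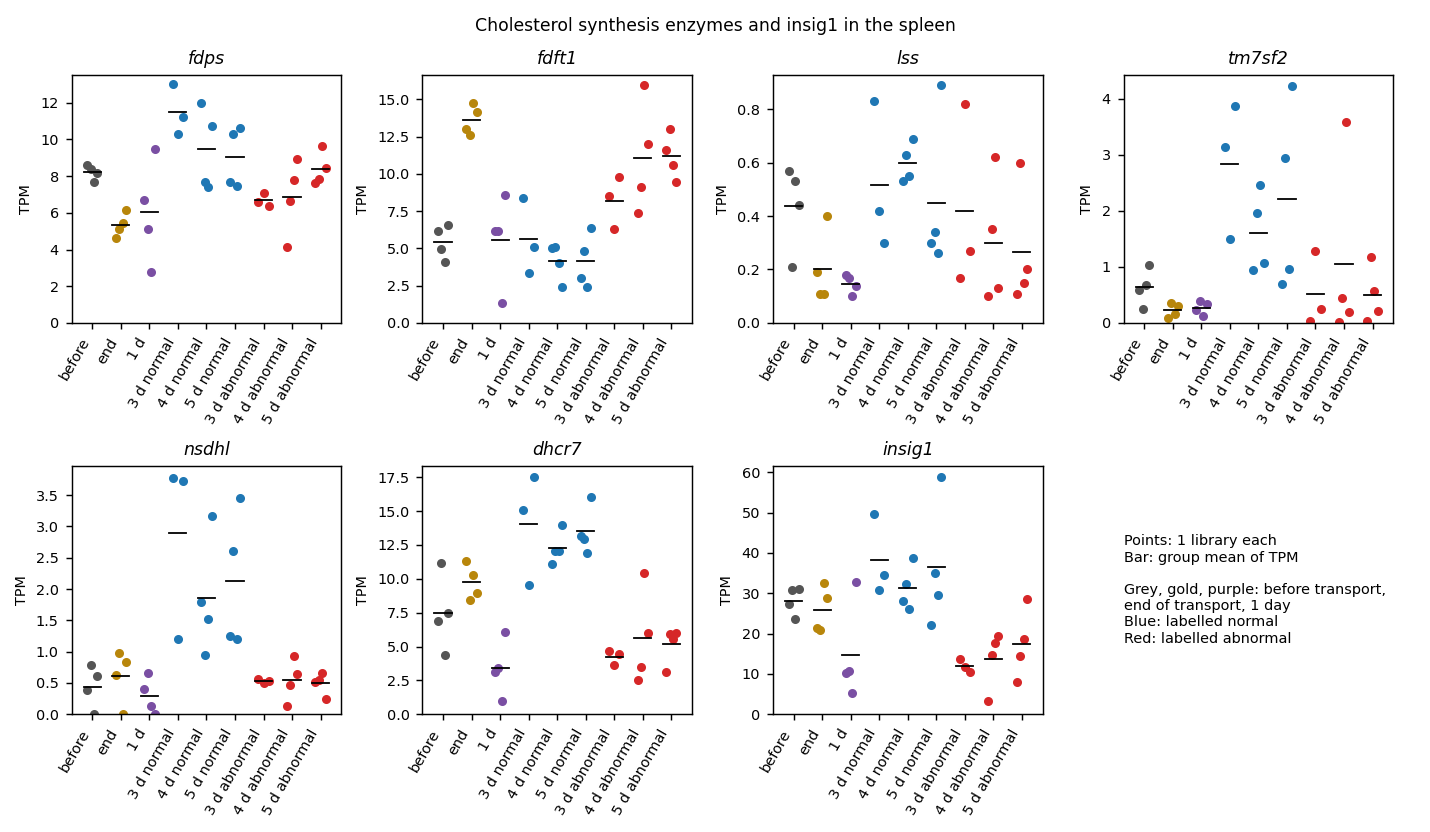
TPM (linear axis, from 0) of the 7 genes in each of the 34 spleens, by group, with 1 point per library and a bar at the group mean. *nsdhl* and *dhcr7* are highest in normal fish (blue), *fdft1* is high at the end of transport (12.6 to 14.75 TPM) and in abnormal fish (red), and *lss* stays under 0.89 TPM or at it.

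By day, 5, 4 and 4 of the 6 genes were called on days 3, 4 and 5, where 33.5%, 42.1% and 31.2% of all genes were. *dhcr7* was lower on each day, by -1.48 (limma adjusted p = 0.00385), -1.15 (adjusted p = 0.00517) and -1.26 (adjusted p = 0.00358), and so was *nsdhl* (-1.26, -0.86 and -1.01), which passed the filter through normal spleens and was not called on any of the 3 days with a pseudocount of 0.1 (adjusted p = 0.0511, 0.0573 and 0.051). *fdft1* was 0.53 on day 3 (adjusted p = 0.27), 1.22 on day 4 (adjusted p = 0.00359) and 1.30 on day 5 (adjusted p = 0.00305). *insig1* was -1.06 on day 5 and did not pass (adjusted p = 0.0556). The count on day 3 was 3 without abnormal fish 1 or 3 or normal fish 3 and 2 without normal fish 1, and that on day 4 was 2 without abnormal fish 1. After rescaling, the calls of *dhcr7* (adjusted p = 0.0643) and *nsdhl* (adjusted p = 0.0756) on day 4 were lost. In the test of a change from day to day 0 of 6 genes were called (limma, 0 with an unadjusted p under 0.05, lowest unadjusted p = 0.242), where 0.0167% of all genes were called.

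Against the spleens before transport, normal fish were higher in *nsdhl* (1.14, limma adjusted p = 0.000312), *tm7sf2* (0.89, adjusted p = 0.0251) and *dhcr7* (0.79, adjusted p = 0.0225), 3 of 6 where 32.1% of all genes were called. Since *nsdhl* and *tm7sf2* passed the filter mainly through these normal spleens, that count is a description. It was 1 without fish 1 or fish 3 before transport, and the call of *tm7sf2* was lost after rescaling (adjusted p = 0.0552). Abnormal fish were lower in *insig1* (-1.05, adjusted p = 0.0248) and higher in *fdft1* (0.77, adjusted p = 0.0315), 2 of 6 where 28.6% were called. That count was 0 without fish 1 or fish 2 before transport and 1 without fish 3 or fish 4 before transport or abnormal fish 3 of day 3.

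Other values of the spleens moved with the labels. The 10 most abundant genes took 7.643 to 12.52% of the TPM in normal and 20.8 to 62.78% in abnormal spleens. Red blood cell markers summed to 63.65 to 496.8 TPM in normal and 481.9 to 1486 TPM in abnormal spleens, and 4 of 4 were higher. The macrophage and neutrophil markers *marco* and *ncf1* summed to 299.8 to 588 TPM in normal and 39.38 to 236.5 TPM in abnormal spleens, and both were lower. Before transport they had summed to 107.5 to 154 TPM, and the red blood cell markers to 277.9 to 518.3 TPM. Against those spleens *marco* and *ncf1* were both higher in normal fish, and 0 were called in abnormal fish. Of the 4 red blood cell markers 1 was lower in normal fish and 3 were higher in abnormal fish. Over all genes 32.1% were called for normal and 28.6% for abnormal fish in these comparisons. The lymphocyte markers summed to 81.86 to 210.3 TPM in normal and 130.9 to 359.2 TPM in abnormal spleens, with *cd79a* and *pax5* of B cells higher and *cd8a* and *lck* of T cells lower. Of 11 hepatocyte markers 0 were called between the labels (limma, 0 with an unadjusted p under 0.05). Their part in the differences of the 7 genes was not tested.

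Of 10 other synthesis genes tested in the spleen 4 were lower in abnormal fish, where 61.9% of all genes were called and most of these were lower. They were *idi1* (-1.42), *acat2* (-1.17), *mvda* (-0.55) and *hmgcs1* (-0.54), with a median of -0.44. After rescaling *idi1* (-0.81) and *acat2* (-0.88) were still called, while *hmgcs1* and *mvda* turned to 0.0166 and 0.0495. *srebf2* was lower by -1.14 and, after rescaling, by -0.53 (limma adjusted p = 0.0011). Of the 10 other regulators 9 were lower. After rescaling 5 of these turned to a positive value, *mbtps2* (-0.19, adjusted p = 0.136), *ube2g2* (-0.05, adjusted p = 0.703) and *faf2* (-0.01, adjusted p = 0.883) were no longer called, and *srebf2* was the 1 still called.

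Whether the difference between labels differed between the tissues was tested as liver minus spleen of the abnormal minus normal difference, over all 68 libraries. It was 2.17 for *dhcr7* (SE 0.41, limma adjusted p = 1.42e-05), 2.36 for *lss* (SE 0.54, adjusted p = 0.000248), 1.60 for *nsdhl* (SE 0.43, adjusted p = 0.00149) and -1.03 for *tm7sf2* (SE 0.45, adjusted p = 0.0478). It was 0.59 for *fdps* (adjusted p = 0.308), -0.40 for *insig1* (adjusted p = 0.443) and -0.32 for *fdft1* (adjusted p = 0.594), not called. So 4 of 7 were called, where 54.2% of all genes were called and the median of all genes was 0.55. The *dhcr7* difference was 0.87 in the liver, a call lost in 10 of 22 fits as given above, and -1.30 in the spleen. *lss* reached 1 TPM in 0 of 34 spleens and entered this test through the livers alone. Its value therefore largely repeats the liver difference of 2.15. *nsdhl* reached 1 TPM in 10 of 34 spleens, all of normal fish, and was at most 0.93 TPM in those of abnormal fish. For these reasons the count of 4 is a description. *insig1* was lower in abnormal fish in both tissues, and a difference between tissues in it was called after rescaling (-1.06, adjusted p = 0.00934). The call of *tm7sf2* was lost in 22 of 44 fits that left out 1 library (adjusted p up to 0.0964), with the compared groups only (adjusted p = 0.0587) and with a pseudocount of 0.5 (adjusted p = 0.247), and its direction turned with a pseudocount of 0.1 (0.0816, adjusted p = 0.926). Whether same-numbered livers and spleens come from the same fish is not given, and the test treats them as separate fish.

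Genes with a profile over the 9 group means most like the mean of the 7 were ranked among symbols with a group mean of at least 5 TPM, as a description over 9 points. In the liver the 8 closest of 5977 included *acaca*, acetyl-CoA carboxylase of fatty acid synthesis (r = 0.970), *srebf2* (0.938), *scd*, a fatty acid desaturase (0.935), *idi1* (0.931), *sqlea* (0.915), *mvk* (0.880) and *tmem97* (0.877). Of the 11 other synthesis genes 9 ranked within the first 46, while *lbr* and *acat2* ranked 2536 and 2550. In the spleen the 8 closest of 8695 included *cln8* (0.993), *arl8ba* (0.986), *lgmn* (0.982), *zgc:110239* (0.982), *atp6ap2* (0.981), *asah1b* (0.981) and *acp7* (0.980). The best synthesis gene there was *idi1*, at rank 127. The spleen mean gave equal weight to all 7 genes, also to *lss*, which reached 1 TPM in 0 of 34 spleens. *fdft1* ran against the others there (r = -0.569 with their mean), so likeness to the mean is not likeness to each gene.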

How the data were processed

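Total RNA from liver and spleen was depleted of ribosomal RNA and sequenced as directional libraries, per the labels' protocols. Reads were handled with fastp 0.23.2 and Salmon 1.10.0, per the submitters' processing notes. Which genome build they used is not given in the sources used here. The authors deposited 1 table of TPM for 18666 genes in 68 libraries (sums 995833.1 to 999253.8), and no library pair within a group was identical. TPM keeps no read depth, so no counting error or interval was given.

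Groups came from the labels. Values were taken as log2(TPM + 1), keeping genes at 1 TPM or more in at least 3 libraries of the tissue (15430 liver, 17998 spleen, 18666 both). Group means were fitted with limma 3.58.1 in R 4.3.3 (empirical Bayes with trend), with Benjamini-Hochberg adjustment over all genes and a threshold of 0.05, after a test on simulated data. Tables and figures used Python 3.11.15, pandas 2.3.3 and matplotlib 3.10.9. The members and gene lists were chosen with earlier results of these data known. A few genes are not reported here and are left out of the lists. Genes of the synthesis and regulation lists could be named, and up to 3 called genes with the smallest p from other lists. The alternatives tried were rescaling by the median of ratios, other pseudocounts (0.1 and 0.5), a stricter filter (5 TPM) or none, the replicate block, the compared groups only, leaving out 1 library, and leaving out 2 livers together.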

Additional observations from a re-analysis of the deposited data

Results flagged for a closer look

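In 4 of 98 sets of 4 libraries (a gene in a group), 1 library lay far from the other 3, by the gap to its neighbour as a share of the range. Chance alone marks about 1 set in 20. *tm7sf2* was 117.2 TPM in the liver of normal fish 4 on day 5, where the other 3 were 66.6 to 74.28 TPM. *tm7sf2* was 3.58 TPM in the spleen of abnormal fish 3 on day 4, where the others were 0.02 to 0.44 TPM. *lss* was 0.89 TPM in the spleen of normal fish 4 on day 5, where the others were 0.26 to 0.34 TPM. *dhcr7* was 3.11 TPM in the spleen of abnormal fish 1 on day 5, where the others were 5.58 to 6.01 TPM.

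The difference between abnormal and normal fish was tested between the tissues, as liver minus spleen in log2(TPM + 1), and limma called it for 4 genes. It was 2.172 for *dhcr7*, 1.595 for *nsdhl*, 2.356 for *lss* and -1.029 for *tm7sf2*. For *lss* no spleen passed 0.89 TPM, for *nsdhl* no spleen of an abnormal fish passed 0.93 TPM, and the value of *tm7sf2* depends on the pseudocount.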

How the results depend on the processing

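Of 137 counts recomputed under the other settings, those that left out 1 library apart, 119 stayed within 1.5 times the reported count and 18 did not. The cause was not tested. Among members called, the count for the spleen after 1 day (2) was 1 with a pseudocount of 0.1, 1 with 0.5, 1 with no filter and 0 with the compared groups only. For the spleen between labels, day 3 (5) gave 3 with a pseudocount of 0.1 and 3 with a filter of 5 TPM, and day 5 (4) gave 2 and 2. Normal spleens against before transport (3) gave 1 with the filter of 5 TPM. With rescaling, the counts were 2 for the liver on day 3 (1), 2 for the spleen at the end of transport (1) and 2 for the spleen on day 4 (4). With the compared groups only, they were 2 for abnormal livers against before transport (4), 4 for the liver on day 4 (2) and 2 for the spleen at the end of transport (1). Other synthesis genes called in the liver numbered 1 at the end of transport with rescaling (0), and after 1 day (5) 8 with rescaling and 1 with the compared groups only.

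The difference of *tm7sf2* between tissues reversed to 0.0816 with a pseudocount of 0.1. Under rescaling, spleen differences between labels reversed for *fdps* (0.0052 on day 3, 0.19 over the 3 days), *ube2g2* on day 3 (0.0358), and over the 3 days *hmgcs1* (0.0166), *mvda* (0.0495), *srebf1* (0.18), *mbtps1* (0.0867), *erlin1* (0.14), *spring1* (0.25) and *rnf139* (0.0785).

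Leaving out 1 library gave 3 to 4 called members between labels in the liver (mean of 3 days), 0 to 2 on day 3, 1 to 4 on day 4 and 2 to 3 on day 5, and in the spleen 6 to 6, 2 to 4, 2 to 5 and 3 to 5. Against before transport it gave 3 to 4 for normal livers, 1 to 5 for abnormal livers, 1 to 3 for normal spleens, 0 to 2 for abnormal spleens, 0 to 1 for the spleen at the end of transport and 0 to 3 after 1 day. It gave 3 to 4 for the difference between tissues and 0 to 0 for the change with day in each tissue. Other synthesis genes called in the liver were 0 to 1 at the end of transport and 2 to 6 after 1 day.

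Over all genes, the numbers called that moved by over 1.5 times were these. With the compared groups only, the liver had 185 at the end of transport (reported 1886), 248 after 1 day (4218) and 442 for abnormal livers against before transport (1432), and the spleen 6115 at the end of transport (2197), 532 after 1 day (3609) and 9352 for normal fish against before transport (5779). With rescaling there were 2319 for abnormal livers against before transport, 4163 for the liver on day 3 (2731), 4699 for the spleen at the end of transport, 6172 after 1 day and 3872 on day 3 (6028). With a filter of 5 TPM, which tests fewer genes, the liver had 989 at the end of transport, 5175 for normal (7964) and 862 for abnormal fish against before transport. Without fish 4 before transport and fish 3 after 1 day, the liver had 2087 after 1 day and 847 for abnormal fish against before transport. Leaving out 1 library gave 830 to 3581 for the liver at the end of transport, 1941 to 4995 after 1 day, 656 to 2820 for abnormal livers against before transport, 1390 to 2962 for the liver on day 3, 1410 to 1797 for the spleen at the end of transport, 1838 to 6454 after 1 day and 3283 to 5833 for abnormal spleens (5154) against before transport.

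The fish numbers were not taken to pair the groups compared, since same-numbered fish of those groups correlated over 0.1 in at most 1 pair per comparison. Same-numbered livers and spleens did so in 23 of 34 cases (-0.344 to 0.456), and whether they come from the same fish is not given. With the replicate block the count between labels was 3 in the liver (reported 4), 3 for abnormal livers against before transport (4) and 5 in the spleen on day 5 (4), and no count moved beyond 1.5 times. Depth is unknown, so no limit can be set on genes at 0.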
